A study of Rattus norvegicus with 10 samples.

Results

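Annexins A1, A2, A3 and A5 were followed across 10 lacrimal glands of the rat, which supply the aqueous layer of tears. Every probe set whose platform annotation gave the symbol Anxa1, Anxa2, Anxa3 or Anxa5 was taken, 7 of the 8799 probe sets in the table and 4 of 4736 genes named by them. The family was selected on the measured difference of both Anxa1 probe sets between denervated and control glands. Therefore differences of its members between denervated and control glands are described below and not tested. Denervated glands (n = 5) had lost their parasympathetic supply 7 days earlier, when the greater superficial petrosal nerve was cut. The 5 control glands were 3 contralateral glands 7 days after that operation, 1 gland 7 days after a sham operation and 1 gland of a normal, unoperated animal. The contralateral glands are so named in their titles, while their descriptions place them on the operated side, and the titles were followed here. The sources used here do not give strain, sex or age. Nothing in the labels says that the numbered glands came from separate animals, and a p-value here reflects variation among the arrays, some of which may be technical.

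Annexins are cytosolic proteins that bind phospholipid membranes when calcium rises, and they take part in membrane traffic, secretion and membrane repair. Annexin A1 is induced by glucocorticoids, limits the release of arachidonic acid, and when secreted acts on formyl peptide receptors to restrain the recruitment of leukocytes. Annexin A2 joins with the S100 protein S100a10 at the plasma membrane, where it organises actin and binds plasminogen. Annexin A5 binds phosphatidylserine and is an anticoagulant, and annexin A3 is abundant in neutrophils.

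Anxa1 and Anxa2 had the most similar profiles of the family over the glands, so the start of each gene is shown. RefSeq sequences of all 4 genes were found in a promoter table of the GRCr8 assembly, and the 250 bases before the listed start were read, 5′ to 3′ on the strand of the gene. The Anxa1 stretch lies at chr1:227303733-227303982 on the minus strand and the Anxa2 stretch at chr8:78986002-78986251 on the plus strand. RefSeq places the Anxa1 gene at chr1:227287713-227306739, so the Anxa1 stretch lies within the annotated gene and precedes 1 of its listed starts, while the Anxa2 stretch ends at the base before its gene. Capitals mark the TATA box letters TATAAA, the AP-1 letters TGAGTCA and the GC box letters GGGCGG, searched on both strands.
Anxa1: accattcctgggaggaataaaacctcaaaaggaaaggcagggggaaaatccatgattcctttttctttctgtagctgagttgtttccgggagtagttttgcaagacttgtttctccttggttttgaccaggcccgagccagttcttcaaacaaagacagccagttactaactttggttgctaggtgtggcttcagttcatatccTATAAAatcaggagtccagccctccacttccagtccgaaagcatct
Anxa2: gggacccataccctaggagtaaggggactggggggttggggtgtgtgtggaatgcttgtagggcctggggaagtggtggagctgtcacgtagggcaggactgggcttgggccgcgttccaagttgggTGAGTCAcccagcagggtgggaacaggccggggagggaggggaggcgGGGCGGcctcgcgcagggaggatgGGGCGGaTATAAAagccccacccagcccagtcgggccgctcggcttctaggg
TATAAA began 46 bases before the listed start of Anxa1 and 45 bases before that of Anxa2. It was found in the same window of 12.9% of 33469 rat promoters, and in neither Anxa3 nor Anxa5. TGAGTCA, held by 4.05% of promoters, was found in Anxa2 alone among the 4, 123 bases before the start. GGGCGG, held by 30.5%, occurred in Anxa2, Anxa3 and Anxa5 and not in Anxa1. The marked matches do not overlap. The Anxa1 stretch had 45.2% G and C, against 67.2% for Anxa2, 64% for Anxa3 and 65.2% for Anxa5. The full glucocorticoid response element, held by 0.0120% of promoters, the shorter TGTTCT contained in it, held by 17.5%, the letters TTCNNNGAA of STAT sites, held by 7.67%, and CCAAT, held by 34.0%, were found in none of the 4 windows. The Anxa3 and Anxa5 windows also overlap their annotated genes, that of Anxa5 for most of its length. The matches describe letters in short windows only.

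Levels are given as deposited intensities, which are linear and scaled by the authors to a common trimmed mean on each array. Array medians still ran from 553.5 to 979, so comparisons of single glands depend on this scaling. Intensities cannot be compared between probe sets. For differences, intensities under a floor of 156.2 were set to it and log2 was taken. The gland itself was recognisable on every array: Aqp5, the water channel of secretory acini, had intensities of 7292 to 14454 in denervated glands and 4147 to 16469.5 in control glands at its probe set U16245_at. Of 13 acinar markers listed, 10 had probe sets and all 10 were above the filter on dim probe sets. The secretory markers Lpo, Ltf and Pigr were not analysed here.

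Arrays of 3 glands stood apart from the others, and this bears on every annexin value. Denervated 1, contralateral 1 and the sham gland correlated with each other at 0.851 to 0.898 across the 6118 probe sets tested. Against the other 7 arrays they correlated at 0.715 to 0.821 (median 0.791), and those 7 among themselves at 0.752 to 0.912. The 7 were not uniform. Denervated 5 correlated at only 0.752 with the unoperated gland, 0.755 with contralateral 3 and 0.771 with contralateral 2. The acinar marker list was scored in each gland as the mean log2 difference from the control mean. It was also highest in these 3 glands, with 0.88 in denervated 1, 0.69 in contralateral 1 and 0.57 in the sham gland. Its members were not uniform. Dnase1 at U76635mRNA_at had 231646, 438126 and 465066 in these 3 glands, in that order, and 177.5 to 21433 in the others. Aqp5 at U16245_at had 7292, 4147 and 6167. For it denervated 1 was the lowest denervated gland, and contralateral 1 and the sham gland were the lowest control glands. Annexin differences, likeness and the total counts over the related lists are therefore also given without these 3 arrays. Messenger RNA was measured in whole glands, so more cells of a type and more RNA per cell cannot be told apart.

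Anxa1 was higher in 4 of the 5 denervated glands. At the probe set rc_AI171962_s_at it had intensities of 2151, 16759.6, 7699, 19280.2 and 20488 in denervated 1 to 5, against 1990.3, 4209.6 and 2388 in contralateral 1 to 3, 3152 in the unoperated gland and 2029.9 in the sham gland. Denervated 2 to 5 each lay above all 5 control glands, and denervated 1 lay among the controls. Denervated glands averaged 13.31 ± 1.38 on the log2 scale, against 11.37 ± 0.46 for controls (SD, n = 5 each), a 3.86-fold difference.

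The second Anxa1 probe set, S57478cds_s_at, gave the same order of groups. Its intensities were 2912, 28642, 11010.5, 22579 and 47907 in denervated 1 to 5, against 1875, 5431 and 5665 in contralateral 1 to 3, 5604 in the unoperated and 3018 in the sham gland. Again denervated 2 to 5 lay above every control gland and denervated 1 did not. Denervated glands averaged 13.95 ± 1.56 on the log2 scale, against 11.95 ± 0.71 for controls (SD, n = 5 each), a 4.00-fold difference. Without denervated 1 the folds were 5.69 at rc_AI171962_s_at and 6.10 at S57478cds_s_at. Against the 3 contralateral glands alone, all 5 denervated glands differed by 1.91 and 2.03 on the log2 scale.

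Anxa2 followed Anxa1 at a smaller difference. Its 1 probe set, L13039_s_at, had intensities of 6474, 48122, 17240.4, 21645 and 55175 in denervated 1 to 5, against 6217, 12990.1 and 11478 in contralateral 1 to 3, 6465 in the unoperated and 6057 in the sham gland. Denervated 2 to 5 were above all controls, and denervated 1 stood beside the sham, unoperated and contralateral 1 glands. Denervated glands averaged 14.49 ± 1.25 on the log2 scale, against 12.995 ± 0.53 for controls (SD, n = 5 each), a 2.81-fold difference, or 3.86-fold without denervated 1. RefSeq lists 8 rat pseudogenes named Anxa2-ps or Anxa2rl-ps, and cross-hybridisation with their transcripts was not tested. Probe sets ending in _s_at can also match related transcripts, which holds for both of Anxa1, that of Anxa2 and 1 of Anxa5.

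**Figure D1:**
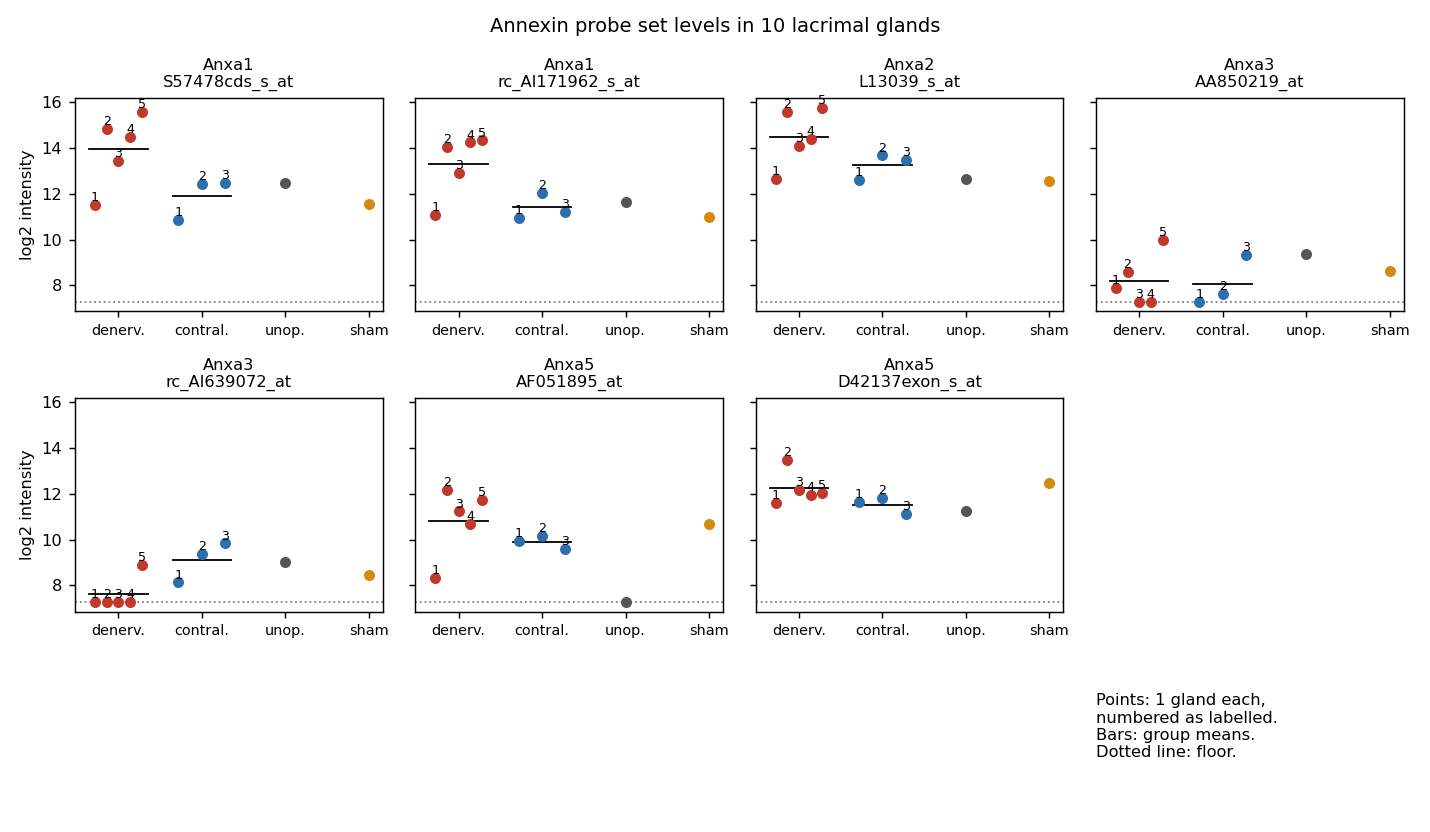
Log2 intensity of the 7 annexin probe sets (1 panel each) in denervated, contralateral, unoperated and sham glands. Points are single glands with their numbers, bars are group means and the dotted line is the floor at an intensity of 156.2. For Anxa1 and Anxa2, denervated 2 to 5 lie above all control glands and denervated 1 does not.

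Anxa5 had a wider spread and its 2 probe sets separated the groups less. At AF051895_at the intensities were 318, 4590.4, 2396, 1626 and 3412 in denervated 1 to 5, against 993, 1157 and 779 in contralateral 1 to 3, 127 in the unoperated and 1645 in the sham gland. Denervated 2, 3 and 5 were above all controls, denervated 4 was just below the sham gland, and denervated 1 was lower than every contralateral gland. The unoperated gland was under the floor, so its distance from the others is understated. Denervated glands averaged 10.82 ± 1.51 on the log2 scale, against 9.54 ± 1.32 for controls (SD, n = 5 each).

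At D42137exon_s_at, Anxa5 ranged from 3094.5 to 11358 in denervated glands with a median of 4231, and from 2212 to 5745 in control glands with a median of 3167. Denervated 2 alone lay above all 5 control glands, and the sham gland was higher than the other 4 denervated glands. The log2 difference was 0.58, against 1.28 at AF051895_at. At AF051895_at the difference was 0.72 without the unoperated gland and 1.91 without denervated 1.

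Anxa3 had lower means in denervated glands. At rc_AI639072_at its intensities were 143, 61.9, 107, 13.7 and 472 in denervated 1 to 5, against 281, 673 and 911 in contralateral 1 to 3, 522 in the unoperated and 355 in the sham gland. Denervated 1 to 4 were under the floor and below every control gland, while denervated 5 lay within the control range. The log2 difference was -1.37, which the floor understates. This probe set was too dim for the filter and entered no test, so 6 of the 7 probe sets passed it.

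The other Anxa3 probe set, AA850219_at, showed no such separation. It had 239, 387, 85.2, 86.1 and 1001.5 in denervated 1 to 5, against 106, 197 and 644 in contralateral 1 to 3, 672 in the unoperated and 402 in the sham gland. The groups overlapped, denervated 5 was the highest gland and the log2 difference was -0.25. Both Anxa3 probe sets were near the floor, and they do not give one answer for this gene.

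Denervated minus control differences of the 7 probe sets had a median of 1.28 on the log2 scale, against -0.08 over the 6118 probe sets tested. Of the 6118 differences, 29 were higher than that of Anxa1 at S57478cds_s_at and 33 higher than that at rc_AI171962_s_at. By limma 0 of 6118 probe sets passed at a Benjamini-Hochberg adjusted p under 0.05 (0% called), and 592, or 9.68%, had an unadjusted p under 0.05, 307 of them higher and 285 lower. With arrays scaled to their medians, the split was 371 higher and 154 lower. Against contralateral glands 0 passed (0%) and 438, or 7.16%, had an unadjusted p under 0.05, with 4.15% higher and 3.01% lower. Denervated 2 to 5 lay above all control glands in 3 of the 7 annexin probe sets and in 3.79% of those tested, and below them in 0 of the 7 and in 3.78%. Since this contrast chose the family, nothing is read from these counts.

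Within the 3 arrays that stood apart, Anxa1 and Anxa2 were close in the denervated gland and the others, while Anxa5 was lower in the denervated gland. Denervated 1 minus the mean of contralateral 1 and the sham gland was 0.10 on the log2 scale for Anxa1 at rc_AI171962_s_at, 0.29 at S57478cds_s_at, 0.08 for Anxa2, -2.01 for Anxa5 at AF051895_at and -0.46 at D42137exon_s_at. For Anxa3 it was -0.07 at AA850219_at and -1.01 at rc_AI639072_at. Among the other 7 arrays, 4 denervated and 3 control, the difference was 2.25 and 2.12 for the Anxa1 probe sets, 1.68 for Anxa2, 2.43 and 1.01 for Anxa5, and -1.73 and -0.50 for Anxa3 at rc_AI639072_at and AA850219_at. All 4 denervated glands then lay above all 3 control glands for both Anxa1, the Anxa2 and both Anxa5 probe sets, a separation held by 6.42% of the probe sets tested, and below them for Anxa3 at rc_AI639072_at, held by 6.15%. With 1 denervated gland in the set of 3, whether that gland or the set differs cannot be told apart.

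**Figure D2:**
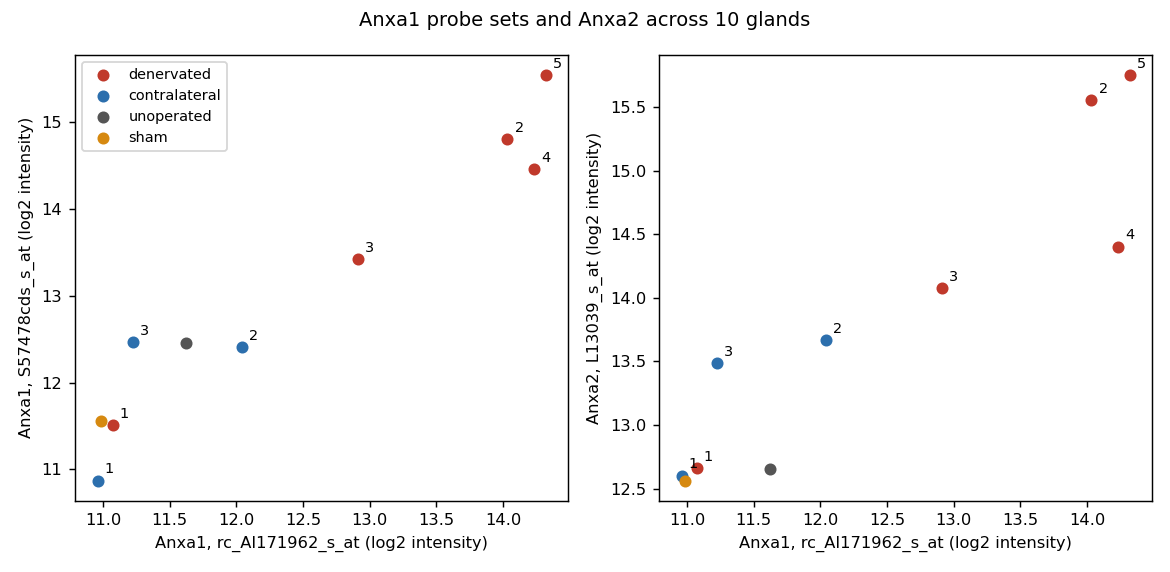
Log2 intensity of the Anxa1 probe set rc_AI171962_s_at (x axes) against the other Anxa1 probe set (left) and Anxa2 (right) in 10 glands, coloured by group and numbered. Denervated 2 to 5 extend to the upper right, and denervated 1 sits with contralateral 1 and the sham gland at the lower left.

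The 2 Anxa1 probe sets gave nearly the same profile over the 10 glands, with a Pearson correlation of 0.96. Ranked by likeness to S57478cds_s_at among 6117 other probe sets, the second Anxa1 probe set was number 3 and Anxa2 number 9 with a correlation of 0.95. For rc_AI171962_s_at they were number 2 and number 14, Anxa2 correlating at 0.93. Anxa5 followed at 0.63 and 0.47 with S57478cds_s_at (AF051895_at and D42137exon_s_at), and Anxa3 at 0.31 (AA850219_at) and -0.18 (rc_AI639072_at). These correlations share the arrays, their scaling and the difference between groups, and are descriptions over 10 glands. Over the 7 glands without the arrays that stood apart, the Anxa1 probe sets correlated at 0.95 with each other and at 0.93 and 0.87 with Anxa2.

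The genes most like Anxa1 at rc_AI171962_s_at were Lamp2, a lysosomal membrane protein (0.99), Ezr, which links actin to the plasma membrane (0.96), the ribosomal protein Rps6 (0.96), the leukocyte tetraspanin Cd53 (0.95) and the small heat shock protein Cryab (0.94). Those most like it at S57478cds_s_at were Atp5if1, an inhibitor of the mitochondrial ATP synthase (0.97), the lipoprotein Apoe (0.96), the coactivator Sub1 (0.96), the stress-induced Gadd45a (0.96) and the protease inhibitor Cst3 (0.95). Lamp2 had intensities of 1415, 3359, 2554, 3638 and 4008 in denervated 1 to 5 and of 1365 to 1957 over the control glands. Apoe had 39759, 274914, 139885, 140562 and 284836 in denervated 1 to 5 and 22032 to 74876 over the control glands at X04979_at. For 9 of these 10 genes denervated 2 to 5 were above all controls and denervated 1 was not, and for Sub1 the same held of denervated 2, 4 and 5. Over all probe sets tested, 3.79% had denervated 2 to 5 above all controls, wherever denervated 1 lay. The 10 genes were picked by likeness to Anxa1 over these same glands. Their shared pattern therefore follows from the choice, and nothing is read from it. Without the 3 arrays the correlations of these genes were 0.91 to 0.99, over glands that also served in the choice.

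The contrast of contralateral glands (n = 3) with the unoperated and sham glands (n = 2) takes no denervated gland into its difference, and the annexins were tested in it. In the fit of 3 classes, however, the spread behind its standard errors was estimated with the denervated arrays too. None of the 6 probe sets tested passed by limma, with adjusted p from 0.981 to 0.995. The log2 differences (± SE) were 0.10 ± 0.79 and -0.09 ± 0.91 for Anxa1 at rc_AI171962_s_at and S57478cds_s_at, 0.64 ± 0.71 for Anxa2, 0.93 ± 1.08 and -0.34 ± 0.54 for Anxa5 at AF051895_at and D42137exon_s_at, and -0.94 ± 0.95 for Anxa3 at AA850219_at. In a fit on the 5 control glands alone, added after the data were seen, the standard errors were 0.45 and 0.55 for the Anxa1 probe sets and 0.36 for Anxa2. None of the 6 probe sets passed there either, with limma adjusted p from 0.847 to 0.979, and 0 of all 6118 passed, 343 having an unadjusted p under 0.05. In the fit of 3 classes 0 of 6118 passed (0%) and 299, or 4.89%, had an unadjusted p under 0.05, with 1.52% higher and 3.37% lower. That split, 93 higher and 206 lower, was 157 and 137 after quantile scaling and 202 and 88 after median scaling, where the median of all differences was -0.01 and 0.18, against -0.15 as deposited. The median standard error of this contrast was 0.72, which limits what it can show.

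**Figure D3:**
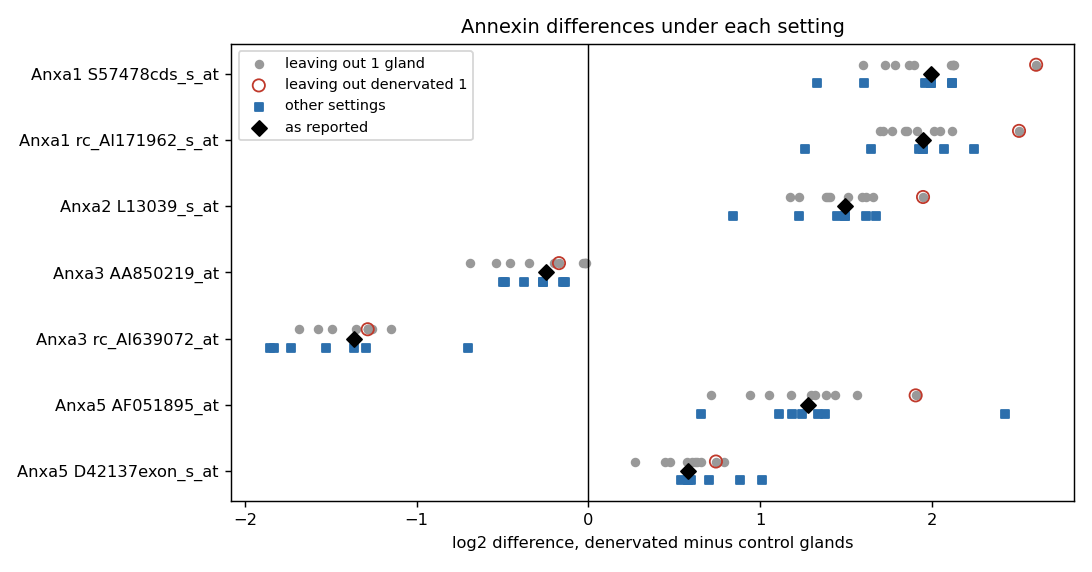
Log2 difference (x axis) of denervated minus control glands for each annexin probe set (rows), as reported (diamonds), leaving out each gland (grey points, denervated 1 ringed) and under 7 other settings (squares). Both Anxa1 probe sets and Anxa2 stay above 0, at 0.84 or more, and the ringed points for them lie furthest right.

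Some lists of cell type markers were high in the same denervated glands as Anxa1 and Anxa2. The macrophage and monocyte list, of whose 20 genes 11 had probe sets and 10 were tested, scored -0.02 in denervated 1 and 0.99 to 1.35 in denervated 2 to 5, against -0.33 to 0.22 in control glands. Myoepithelial and smooth muscle markers (12 genes tested of 17) scored -0.19 in denervated 1 and 0.67 to 1.99 in denervated 2 to 5, against -0.70 to 0.52 in control glands. Duct markers (7 of 14) scored -0.37 in denervated 1 and 0.30 to 0.72 in the other denervated glands, against -0.33 to 0.27 in control glands. Of 10 tested duct probe sets, 6 were above all controls in denervated 2 and 4 in each of denervated 3, 4 and 5. That list includes Krt8, Krt18, Epcam and Cldn3, epithelial genes not particular to ducts, while its Krt7, Krt13 and Krt15 were not analysed here. Denervated 1 was within or below the control range for these 3 lists, and denervated 2 to 5 were above it. Their part in the annexin differences was not tested. Of the 15 macrophage probe sets, 13 had a difference above 0, against 44.6% of all those tested, with arrays scaled as deposited. Among the 13 were Lyz2, at 0.51, which is also on the acinar list, and C1qc at rc_AA891576_s_at, at only 0.06. The 2 below 0 were Itgam, at -0.61, and the leukocyte gene Ptprc at M25823_s_at, at -0.24. The macrophage markers Cd68, Cd163 and Adgre1 were not analysed here.

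Fibroblast markers (15 of 17 genes tested) scored 0.17, 1.79, 0.90, -0.05 and 1.83 in denervated 1 to 5, against -0.53 to 0.87 in control glands, the mean in denervated 4 lying within the control range. Single members differed, since 8 of the 28 tested fibroblast probe sets were above all controls in denervated 4, among them Mgp and 3 of Dcn, against 22, 15 and 20 in denervated 2, 3 and 5. Aif1, a calcium-binding protein of macrophages, had 516 in denervated 1 at U10894_s_at and 792 to 1423 in denervated 2 to 5, against 85.4 to 316 in control glands, and was thus high in denervated 1, where Anxa1 was not. At U17919_s_at all 5 denervated glands were also above all controls, and the dim, untested Aif1 probe set U33471_at differed by -0.36. Blood cell, cell cycle, adipocyte and mast cell lists were highest in denervated 2 and 5, the glands with the highest Anxa2. Blood cell markers scored 1.17 and 1.08 there (control glands up to 0.51), cell cycle genes 1.69 and 1.41 (up to 0.43), adipocyte markers 1.17 and 1.39 (up to 0.46) and mast cell markers 0.91 and 1.38 (up to 0.69). Skeletal muscle markers scored 0.96 and 1.59 in denervated 3 and 4 and -1.18 to -0.20 in the other denervated glands, against -0.59 to 1.25 in control glands. The part of these lists was not tested. Neutrophil markers (3 of 13 genes tested) scored -0.47 to 0.95 in denervated and -2.06 to 1.09 in control glands. Of the tested ones, Lcn2 differed by 2.17, with 3 denervated glands above all controls, Cxcr2 by -1.17 and Defa5 by -0.25. Lcn2 was under the floor in the sham gland, at 149, and had 7578 to 59525 in the other control glands. The sham gland also had the lowest neutrophil score, so that range rests largely on Lcn2. Mmp8, Mmp9, S100a8 and S100a9 were too dim to test and differed by 0.86, 0.21, -0.58 and -0.32. T and natural killer cell markers (10 of 20) scored -0.67 to 0.21 in denervated and -0.37 to 0.33 in control glands, endothelial markers (7 of 15) -1.08 to 0.54 and -0.52 to 0.70, and nerve and Schwann cell markers (10 of 17) -0.67 to 0.46 and -0.15 to 0.55. B and plasma cell markers had 1 gene on the array, which was too dim to test. As a measure of RNA quality, the log2 ratio of 3′ to 5′ control probe sets was 0.19 to 0.95 in denervated and 0.61 to 1.14 in control glands for beta-actin, and -0.18 to 0.16 and -0.64 to 0.35 for GAPDH. For hexokinase it was -1.33 in denervated 1, 1.47 to 1.81 in denervated 2 to 5 and -0.23 to 2.38 in control glands, and its part was not tested.

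**Figure D4:**
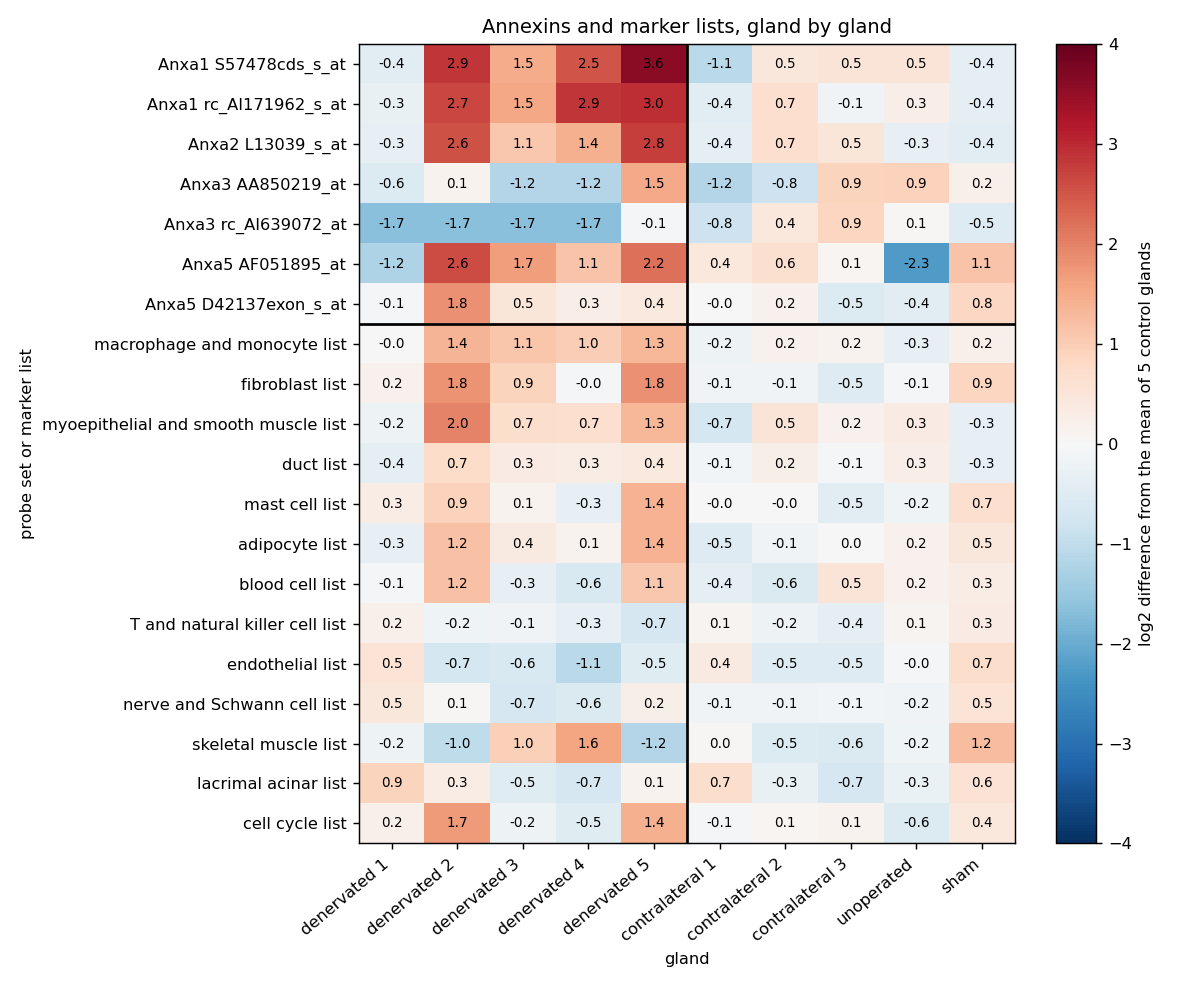
Log2 difference of each gland (columns, denervated left of control) from the mean of the 5 control glands, for the 7 annexin probe sets (above the line) and the mean of marker lists (below it). Colour runs from blue (lower) to red (higher). The macrophage and myoepithelial rows are highest in denervated 2 to 5, as are Anxa1 and Anxa2, and near 0 in denervated 1.

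Anxa4, Anxa6 and Anxa7 also had probe sets, and none passed the test in denervated against control glands. Anxa4, an epithelial annexin, averaged 11.21 ± 0.69 in denervated glands on the log2 scale, against 10.92 ± 0.56 for controls (SD, n = 5 each, difference 0.29 ± 0.38 SE, limma adjusted p = 0.827). Anxa6 differed by -0.53 ± 0.40 at X86086_at, where 3 denervated glands lay below all controls (adjusted p = 0.671), and by -0.19 ± 0.28 at X86086_g_at (adjusted p = 0.844). Anxa7, also known as synexin, differed by -0.01 ± 0.65 (adjusted p = 0.995). Their 4 probe sets had a median of -0.10, and 0 were called at an unadjusted p under 0.05, with or without the 3 arrays that stood apart.

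Among S100 proteins, S100a10, the partner of annexin A2, had similar levels in both groups. It had intensities of 13966, 11087, 13392, 16975 and 10522 in denervated 1 to 5, against 17254, 12912 and 13982 in contralateral 1 to 3, 14802 in the unoperated and 11821 in the sham gland. Denervated 2 and 5 were the lowest glands and contralateral 1 the highest, and the log2 difference was -0.11 ± 0.20 (SE), with a limma adjusted p of 0.880. S100a4 differed by 0.82 ± 0.51 (adjusted p = 0.621) and S100g by 0.32 ± 0.64 (adjusted p = 0.890). S100a1 differed by 1.44 ± 0.64 at rc_AI228548_at (adjusted p = 0.504), with 1.20 at rc_AI228548_g_at, 0.17 at S68809_s_at and -0.09 at U26356mRNA_s_at. Of the 7 S100 probe sets tested, at an unadjusted p under 0.05 there was 1 higher and 0 lower, where 5.02% of all probe sets were higher and 4.66% lower. The 7 formyl peptide receptor genes listed, through which secreted annexin A1 acts, had no probe set with a single symbol in the table used here.

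Genes of arachidonic acid release and use had differences of both signs. Pla2g6, a calcium-independent phospholipase A2, had 876, 1272, 1283, 966 and 639 in denervated 1 to 5, against 2897, 2267 and 2299.8 in contralateral 1 to 3, 2935 in the unoperated and 2179 in the sham gland. All 5 denervated glands were below all controls, denervated 1 included, a separation that 1.03% of tested probe sets showed, and the limma adjusted p was 0.434. The cytosolic Pla2g4a differed by 1.09 ± 0.55 (adjusted p = 0.538), Plaat3 by 0.82 ± 0.54 at X76453_at (adjusted p = 0.639) and -0.54 at rc_AA875291_at, and Plaa by -0.44 ± 0.48 (adjusted p = 0.784). Of 7 phospholipase A2 probe sets 0 were above and 1 below controls (unadjusted p under 0.05), with a median difference of -0.37. Of 10 probe sets for eicosanoid synthesis 0 were called in either direction. The cyclooxygenases Ptgs2 and Ptgs1 differed by -1.08 ± 0.67 and 0.70 ± 0.64, the leukotriene hydrolase Lta4h by 0.29 ± 0.27 at S87522_at and the prostaglandin-degrading Hpgd by -0.95 ± 1.10, with limma adjusted p of 0.617, 0.734, 0.744 and 0.796. Lta4h differed by 0.44 at its other probe set, S87522_g_at.

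Of 23 probe sets for the glucocorticoid receptor and genes that glucocorticoids induce, 2 were above and 0 below controls (unadjusted p under 0.05), with a median of 0.65, and 0 passed after adjustment. The 23 cover 11 of 19 genes listed, Nr3c2, Hsd11b1 and Hsd11b2 included. The listed glucocorticoid-induced genes Fkbp5, Tsc22d3, Per1 and Zbtb16 were not analysed here, so the median does not cover them. Over all probe sets tested 5.02% were higher and 4.66% lower. The receptor gene Nr3c1 differed by -0.46 and 0.56 at its 2 tested probe sets. Gadd45a, a stress gene, had 589, 2617, 1042, 2193 and 3449 in denervated 1 to 5 and 185 to 980.3 over control glands at L32591mRNA_g_at, a difference of 1.70 ± 0.60 (limma adjusted p = 0.437). Its other probe sets differed by 1.30 at L32591mRNA_at, 0.65 at rc_AI070295_at and -0.09 at rc_AI070295_g_at. The transcription factor Cebpb differed by 1.01 ± 0.36 (adjusted p = 0.448), the kinase Sgk1 by 1.44 ± 0.68 (adjusted p = 0.520) and the mineralocorticoid receptor Nr3c2 by 0.89 ± 0.47 at M36074_g_at (adjusted p = 0.559). At M36074_at Nr3c2 differed by 0.32, and at S77528cds_s_at Cebpb by 0.998. For Gadd45a at L32591mRNA_g_at, Cebpb at X60769mRNA_at and Sgk1, denervated 2 to 5 were above all controls and denervated 1 was not. Nr3c2 at M36074_g_at differed from these. Its denervated 1, at 1342.6, was above all controls, and its denervated 5, at 748.8, was not. Over all probe sets tested, 3.79% had denervated 2 to 5 above all controls, and these genes were named for a small p in this contrast.

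In the plasminogen system, which annexin A2 serves as a docking protein, 1 of 4 probe sets was above and 0 were below controls (unadjusted p under 0.05). This was Serpine2, an inhibitor of thrombin and plasminogen activators, with a difference of 1.29 ± 0.58 (limma adjusted p = 0.505). The urokinase gene Plau differed by 0.97 ± 0.55 (adjusted p = 0.588), the tissue activator Plat by 0.62 ± 0.61 (adjusted p = 0.753) and the urokinase receptor Plaur by -0.01 ± 0.59 (adjusted p = 0.995). Among genes of phosphatidylserine recognition and coagulation, the processes of annexin A5, 1 of 13 probe sets was higher and 0 lower. This was tissue factor, F3, with 1.23 ± 0.45 (adjusted p = 0.448). The receptor kinase Tyro3 differed by -0.63 ± 0.31 at D37880_at (adjusted p = 0.522) and by -0.16 at rc_AA852055_at. The probe sets of Scarb1, a scavenger receptor, disagreed, with 1.01 ± 0.60 at AF071495_s_at (adjusted p = 0.603), 0.66 at D89655_at and -0.34 at rc_AA874843_s_at. Those of thrombomodulin, Thbd, also differed in sign, with -0.73 ± 0.64 at U90121_at (adjusted p = 0.723) and 0.10 at AF022742cds_at.

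Of 11 probe sets for membrane repair and cortical actin partners, 2 were above and 0 below controls (unadjusted p under 0.05), with a median of 0.39. They were Ezr, with 0.86 ± 0.32 (limma adjusted p = 0.448), and the intermediate filament gene Vim, with 1.11 ± 0.50 (adjusted p = 0.505). For both, denervated 2 to 5 were above all controls, a separation held by 3.79% of all probe sets tested. The focal adhesion gene Tln1 differed by 0.99 ± 0.54 (adjusted p = 0.575) and the calpain Capn1 by -0.60 ± 0.34 (adjusted p = 0.592). Over all these lists together, 79 probe sets of 53 genes, 7 were above and 1 below controls (unadjusted p under 0.05), 0 passed after adjustment, and the median difference was 0.32. Over all 6118 probe sets 5.02% were higher and 4.66% lower, a split that median scaling moved to 371 higher and 154 lower. Without the 3 arrays that stood apart, 14 of 82 probe sets in these lists were above and 3 below controls (unadjusted p under 0.05), with a median of 0.15. The phospholipase A2 median was then 0.0035 and that of phosphatidylserine recognition and coagulation -0.09, against -0.37 and 0.01 with all glands. Over all probe sets, 6.82% were then higher and 4.92% lower.

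**Figure D5:**
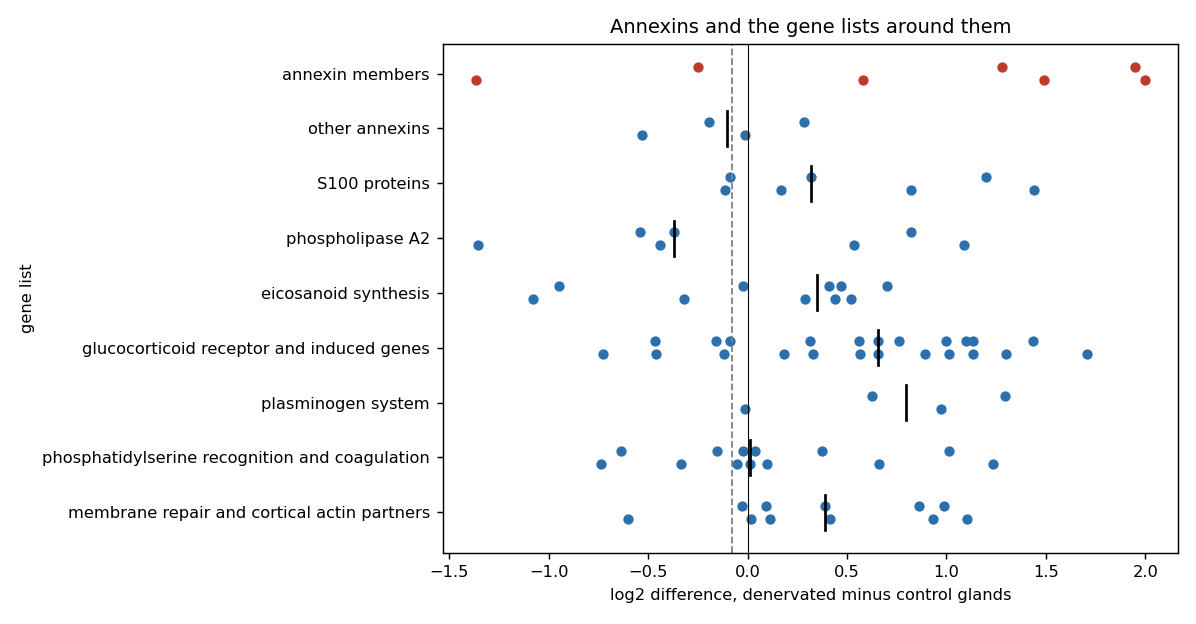
Log2 difference (x axis) of denervated minus control glands for probe sets of the annexins (red, all 7) and of the tested probe sets in 8 lists of related genes (blue), with the median of each of those lists (black bars) and of all probe sets tested (dashed line, at -0.08). The Anxa1 and Anxa2 points reach 2.00 and 1.49, and Anxa4, Anxa6 and Anxa7 lie between -0.53 and 0.29.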

How the data were processed

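RNA of 10 rat lacrimal glands was measured on Affymetrix arrays, 1 per gland. The deposited values are intensities on a linear scale, 1 per probe set. Their trimmed array means, with 2% left out at each end, were 2505 to 2507, so the authors' values share a common trimmed mean. Array medians differed more, from 553.5 to 979. The authors' software is not named in the labels. Intensities below the 20th percentile, 156.2, were raised to it before log2. After removal of 59 array controls, 8740 probe sets remained, and 6118 whose average exceeded the 30th percentile were tested. Symbols came from the platform annotation, updated by gene ID to RefSeq (GRCr8): 7006 probe sets had 1, 308 several and 1426 none. limma 3.58.1 in R 4.3.3 (two-sided, variance trend, Benjamini-Hochberg over all tested probe sets, threshold 0.05) compared denervated with control glands, and separately the 3 classes denervated, contralateral, and unoperated with sham. The number of arrays sets the precision, with a median standard error of 0.50 for denervated minus control on the log2 scale. The steps were tested on simulated data. Members and gene lists were chosen with earlier results of these data known. Of each related list, the 4 genes with the smallest unadjusted p are named, or all where 5 or fewer were tested, and the 5 genes best correlated with each Anxa1 probe set. Nr3c1, Aif1, Dcn, Mgp, Dnase1, Itgam, Ptprc and the neutrophil genes were added after their values were seen. Alternatives varied scaling, floor, filter, trend, array weights and blocks, or left out glands. Figures used matplotlib 3.10.9.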

Additional observations from a re-analysis of the deposited data

Results flagged for a closer look

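In 1 of 14 groups of 5 glands checked (7 annexin probe sets, denervated and control glands), a single gland lay far from the rest. For Anxa3 at rc_AI639072_at, denervated 5 had a log2 intensity of 8.88 while the other 4 denervated glands were all at the floor. Values at the floor are tied and have no order, so no chance rate of such flags can be applied to this group. The gap to the other glands depends on where the floor is set.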

How the results depend on the processing

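The direction of denervated minus control was kept under every alternative run for all 7 annexin probe sets. Leaving out each gland, the log2 difference was 1.60 to 2.61 for Anxa1 at S57478cds_s_at, 1.70 to 2.51 at rc_AI171962_s_at, 1.18 to 1.95 for Anxa2, 0.72 to 1.91 for Anxa5 at AF051895_at and 0.27 to 0.79 at D42137exon_s_at, and -0.69 to -0.01 for Anxa3 at AA850219_at and -1.68 to -1.15 at rc_AI639072_at. Against contralateral glands only, the Anxa3 probe set AA850219_at had 0.13 and changed sign, from -0.31 to 0.76 leaving out each gland. In that contrast the ranges were 1.51 to 2.64 and 1.66 to 2.47 for Anxa1, 0.91 to 1.69 for Anxa2, 0.57 to 1.54 and 0.41 to 0.88 for Anxa5, and -2.01 to -1.16 for Anxa3 at rc_AI639072_at. A block for the 3 arrays that stood apart gave 1.61 and 1.65 for Anxa1 and 1.23 for Anxa2. Whether the 3 shared numbers of denervated and contralateral glands mark pairs cannot be told here. Deviations from group means correlated at 0.49, 0.04 and 0.16 for pairs 1 to 3, and at -0.31 to 0.18 for unmatched numbers. Both glands of pair 1 are among the arrays that stood apart. With the shared numbers as a replicate block, differences were 1.33 and 1.26 for Anxa1, 0.84 for Anxa2 and 0.66 and 0.88 for Anxa5. For Anxa3 they were -0.15 and -1.83, and 0 probe sets passed. The count passing in denervated against control was 0 to 69 leaving out each gland, 69 without denervated 1, where 1104 had an unadjusted p under 0.05, against 592 with all glands and 383 without denervated 2. Against contralateral glands 1 passed without a variance trend and 1 with array weights, and 438 had an unadjusted p under 0.05, against 264 without contralateral 3, 817 without denervated 1 and 282 without denervated 2. For contralateral against unoperated and sham glands 7 of 8740 passed with no filter and 0 to 1 leaving out each gland, and the 299 at an unadjusted p under 0.05 became 576 with no filter, 499 with array weights and 197 without the sham gland. With the 5 control glands alone, chosen after seeing the data, it was 343. No annexin passed that contrast under any alternative run. The cause of these changes was not tested. Signal near the floor limits what Anxa3 can show.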
